A study of Caenorhabditis elegans with 12 samples.

Results

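The oligosaccharyltransferase subunits examined here are 5 genes of the nematode Caenorhabditis elegans, stt-3, ribo-1, ostb-1, ostd-1 and dad-1. They were chosen by name, with earlier results of these data known. Every probe set that the platform annotation assigns to 1 of them alone was taken. This gave 5 genes of the 17118 with a probe set of their own, with 1 probe set each of 22625 on the array, and 0 were shared with another gene. All 5 passed a filter on dim signals that kept 14709 of the 22548 probe sets that are not controls.

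Oligosaccharyltransferase is the membrane complex of the endoplasmic reticulum (ER) that transfers a preassembled sugar chain from a lipid carrier to asparagines of proteins entering the ER. The catalytic subunit STT3 makes the bond, and the other subunits position the protein and the sugar donor and tie the complex to the protein-conducting channel. Tunicamycin blocks the first step in making the lipid-linked sugar chain, upstream of this complex, so that proteins enter the ER without their glycans and the unfolded protein response is engaged.

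Whole first-stage (L1) larvae were studied in 4 groups of 3 arrays. Larvae of the wild-type strain N2 and of manf-1(tm3603), which carries the tm3603 allele of the gene for an ER-resident and secreted protein related to vertebrate MANF, were each given vehicle (DMSO, called "no drug" in the sample titles) or tunicamycin (TM) for 5 h. All larvae had hatched from bleached eggs without bacteria and were collected 24 h after plating, so every group was starved. The labels give the dose as 5 ug per mL in one field and 5 ug per uL in another.

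Values are log2 signals of 1-colour Affymetrix probe sets. Levels of different genes are not set against each other, and pairs of subunits are compared only by their change with treatment. Subunit levels are set beside control probe sets only as a check against background. The 12 arrays had medians between 3.96 and 4.05. The 8 control probe sets for transcripts of other organisms lay between 1.77 and 2.93, and the 5 subunit probe sets between 5.21 and 10.01. Signal in 5 worm control transcripts was 0.69 to 1.26 higher at the 3′ than at the 5′ probe set, as a mean, on the 4 arrays numbered 2, and 1.23 to 1.85 higher on the other 8. Results that rest on the arrays numbered 2 are therefore given without them too. Markers of intestine, hypodermis, muscle, neurons and pharynx were above the dim-signal filter in 36 of 37 genes, with che-14 (hypodermis) below it. Of 8 germline and adult markers 4 were below it, among them the yolk protein genes vit-2 and vit-5. The annotation gives manf-1 no probe set, so its level could not check the genotype labels. The labels do not state whether replicate arrays had larvae from different cultures, and the spread behind each p-value may therefore be technical.

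Whether tunicamycin moved the subunits was asked in each genotype and, for precision, as the average of both effects. Averaged over genotypes, ostb-1 rose 2.41-fold and was 1 of 5 subunits past the threshold of an adjusted p of 0.05, where 1.17% of all probe sets passed as higher. The 4 others were at 2.14-fold for stt-3, 1.83-fold for ribo-1, 1.53-fold for ostd-1 and 1.06-fold for dad-1, and did not pass. In neither genotype alone did any of the 5 pass by limma, against 0.36% of all probe sets passing as higher in wild type and 0.659% in tm3603. At an unadjusted p under 0.05 there were 3 of 5 in each genotype, the same 3 genes, stt-3, ribo-1 and ostb-1. Among all 14709 probe sets, 1179 in wild type and 1307 in tm3603 had such a p.

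**Figure D1:**
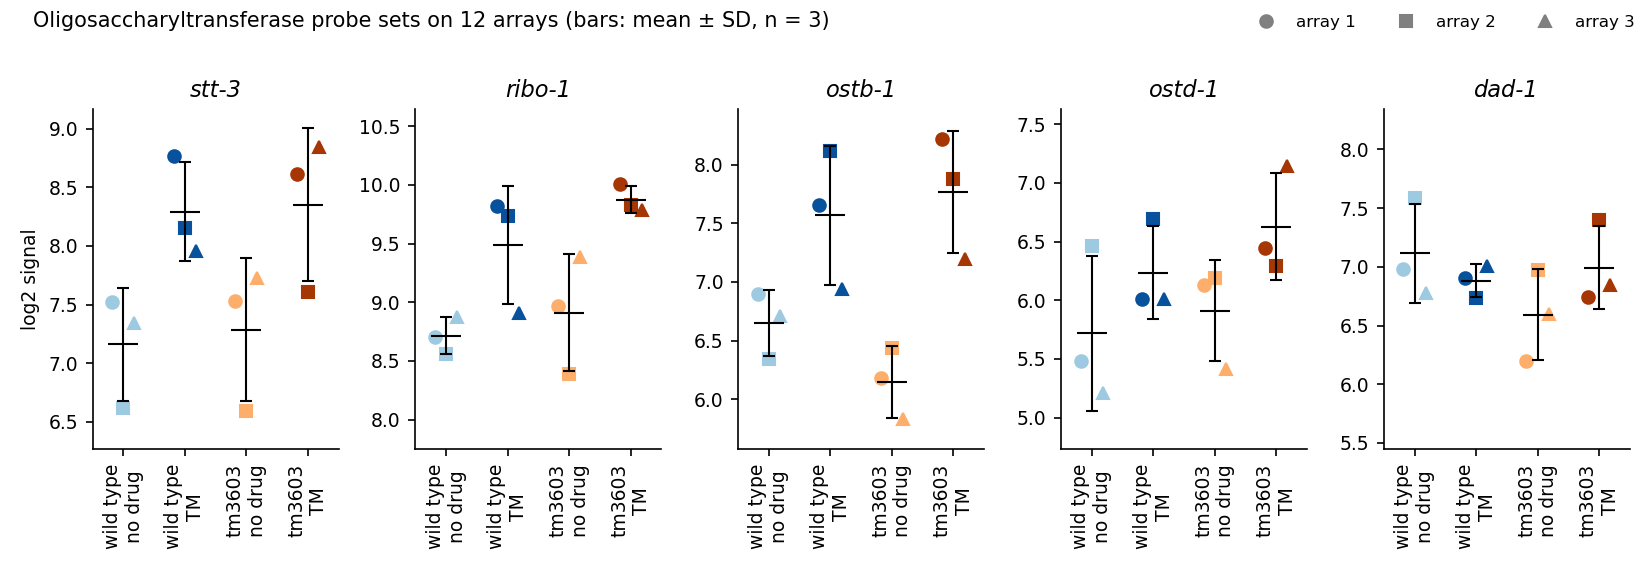
Log2 signal (y axis) of the 5 oligosaccharyltransferase probe sets on each of the 12 arrays, by group (x axis). Symbols give the array number, bars the mean ± SD (n = 3), and all panels span the same number of log2 units. The 6 tunicamycin arrays of ostb-1 all lie above its 6 no-drug arrays, while those of dad-1 do not separate.

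The catalytic subunit stt-3 (probe set 187557_s_at) had signals of 7.52, 6.62 and 7.35 in wild type without drug and 8.77, 8.15 and 7.96 with tunicamycin. In tm3603 they were 7.54, 6.59 and 7.73 without drug and 8.61, 7.61 and 8.84 with it. The wild-type groups did not overlap, and in tm3603 the lowest treated array, numbered 2, lay below the highest untreated one. The log2 change was 1.13 (SE 0.42, limma adjusted p = 0.515) in wild type and 1.07 (SE 0.42, adjusted p = 0.417) in tm3603. Averaged, it was 1.10 (95% interval 0.46 to 1.73, adjusted p = 0.0914), higher than that of 98.3% of all probe sets. Within its group the array numbered 2 gave the lowest stt-3 signal in 3 of 4 groups, both untreated groups among them. Without tm3603 tunicamycin array 2 alone the averaged change was 1.29 (limma adjusted p = 0.0492). Without all 4 arrays numbered 2 stt-3 did not pass. Over the 21 alternative settings it passed in 2, with an adjusted p between 0.0245 and 0.253.

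The ribophorin I homologue ribo-1 (189552_at) belongs, in mammals, to the subunits that hold selected proteins near the catalytic site. Its signals in wild type were 8.71, 8.56 and 8.88 without drug and 9.82, 9.74 and 8.91 with tunicamycin. Those in tm3603 were 8.97, 8.39 and 9.38 without drug and 10.01, 9.83 and 9.78 with it. Treated and untreated arrays did not overlap in either genotype, with the narrowest gap in wild type, from 8.88 to 8.91 on treated array 3. The log2 change was 0.77 (SE 0.30, limma adjusted p = 0.526) in wild type and 0.96 (SE 0.30, adjusted p = 0.211) in tm3603. The averaged change of 0.87 (95% interval 0.41 to 1.32) had an adjusted p of 0.0542 and so missed the threshold. Without wild-type tunicamycin array 3 it was 1.01 (adjusted p = 0.0212), without tm3603 no-drug array 3 it was 0.99 (adjusted p = 0.0424), and without the 4 arrays numbered 2 it was 0.65 (adjusted p = 0.331).

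The subunit ostb-1 (193500_s_at), homologous to mammalian OST48 and yeast Wbp1, is a single-pass membrane protein of the complex. Its wild-type signals were 6.89, 6.34 and 6.71 without drug and 7.65, 8.11 and 6.94 with tunicamycin. In tm3603 they were 6.18, 6.43 and 5.83 without drug and 8.22, 7.88 and 7.20 with it. All 6 treated arrays lay above all 6 untreated ones, a separation that 1.06% of probe sets showed in this direction, and stt-3, ribo-1, ostd-1 and dad-1 did not. The log2 change was 0.92 (SE 0.38, limma adjusted p = 0.57) in wild type. In tm3603 it was 1.62 (SE 0.38, adjusted p = 0.069), or 3.06-fold with a 95% interval of 1.73 to 5.42. The averaged change was 1.27 (SE 0.27, adjusted p = 0.0282). This call was lost without the 4 arrays numbered 2 (1.10, adjusted p = 0.19) and without any 1 of 8 single arrays, where the adjusted p lay between 0.0574 and 0.0824. It held without wild-type no-drug array 1, wild-type tunicamycin array 3, tm3603 no-drug array 2 or tm3603 tunicamycin array 3. In tm3603 alone ostb-1 passed without wild-type tunicamycin array 3 (adjusted p = 0.0495).

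The ribophorin II homologue ostd-1 (184681_s_at) is the delta subunit, Swp1 in yeast. Its wild-type signals were 5.48, 6.46 and 5.21 without drug and 6.01, 6.69 and 6.01 with tunicamycin. In tm3603 they were 6.13, 6.19 and 5.41 without drug and 6.44, 6.29 and 7.14 with it. The groups overlapped in wild type and were apart in tm3603, where the highest untreated array was at 6.19 and the lowest treated one at 6.29. The averaged log2 change was 0.62 (95% interval -0.02 to 1.25, limma adjusted p = 0.472). The changes in the single genotypes were 0.52 in wild type and 0.71 in tm3603, each with an SE of 0.42.

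The small subunit dad-1 (188737_at) is homologous to mammalian DAD1 and yeast Ost2, and DAD1 was named for the apoptosis that follows its loss in a hamster cell line. Its wild-type signals were 6.98, 7.59 and 6.77 without drug and 6.90, 6.73 and 7.01 with tunicamycin. In tm3603 they were 6.20, 6.98 and 6.60 without drug and 6.74, 7.40 and 6.84 with it. Treated and untreated arrays overlapped in both genotypes. The log2 change was -0.23 (SE 0.34) in wild type, 0.40 (SE 0.34) in tm3603 and 0.08 averaged, with a 95% interval of -0.44 to 0.61 and a limma adjusted p of 0.948.

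**Figure D2:**
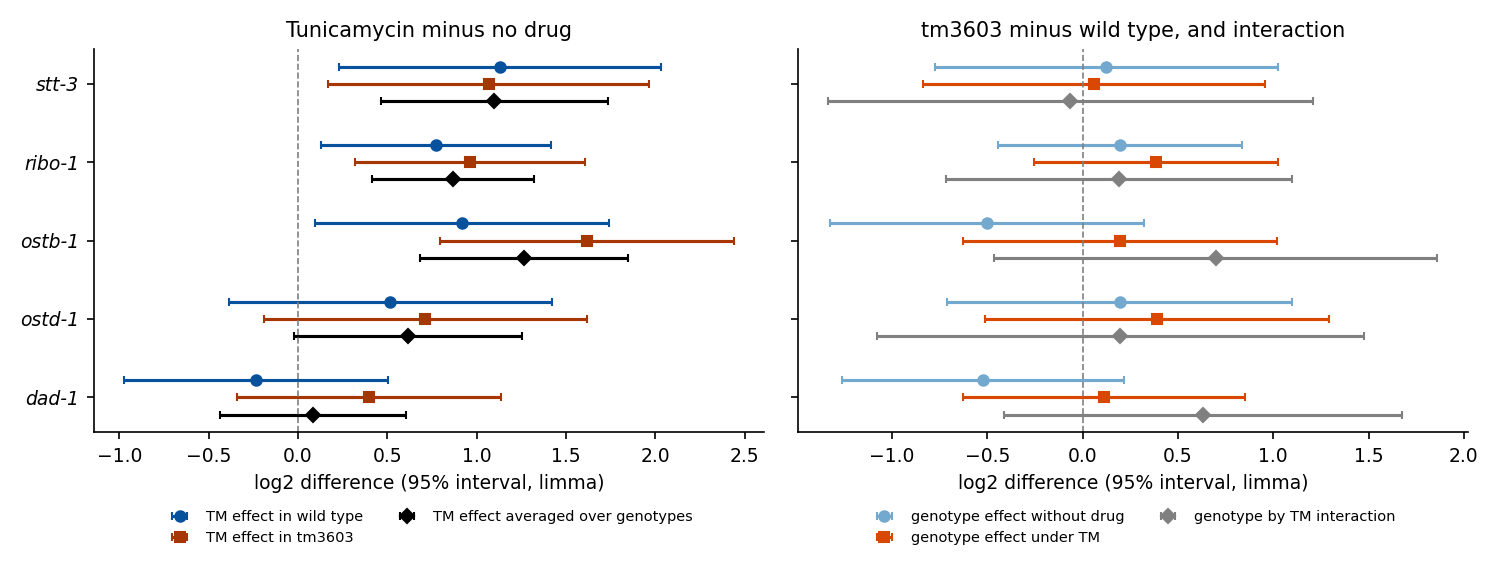
Log2 differences (x axis) of the 5 probe sets with 95% intervals from limma, for tunicamycin against no drug on the left and tm3603 against wild type, with the interaction, on the right. On the left the averaged intervals of stt-3, ribo-1 and ostb-1 lie above 0, and on the right every interval spans 0.

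The averaged effect was recomputed under 21 alternative settings. The adjusted p of ostb-1 stayed below 0.05 in 12 of 21, that of ribo-1 fell below it in 4 and that of stt-3 in 2, and those of ostd-1 and dad-1 in 0. The log2 change of ostb-1 lay between 1.10 and 1.42 over these settings, that of ribo-1 between 0.65 and 1.01 and that of stt-3 between 0.93 and 1.29.

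**Figure D3:**
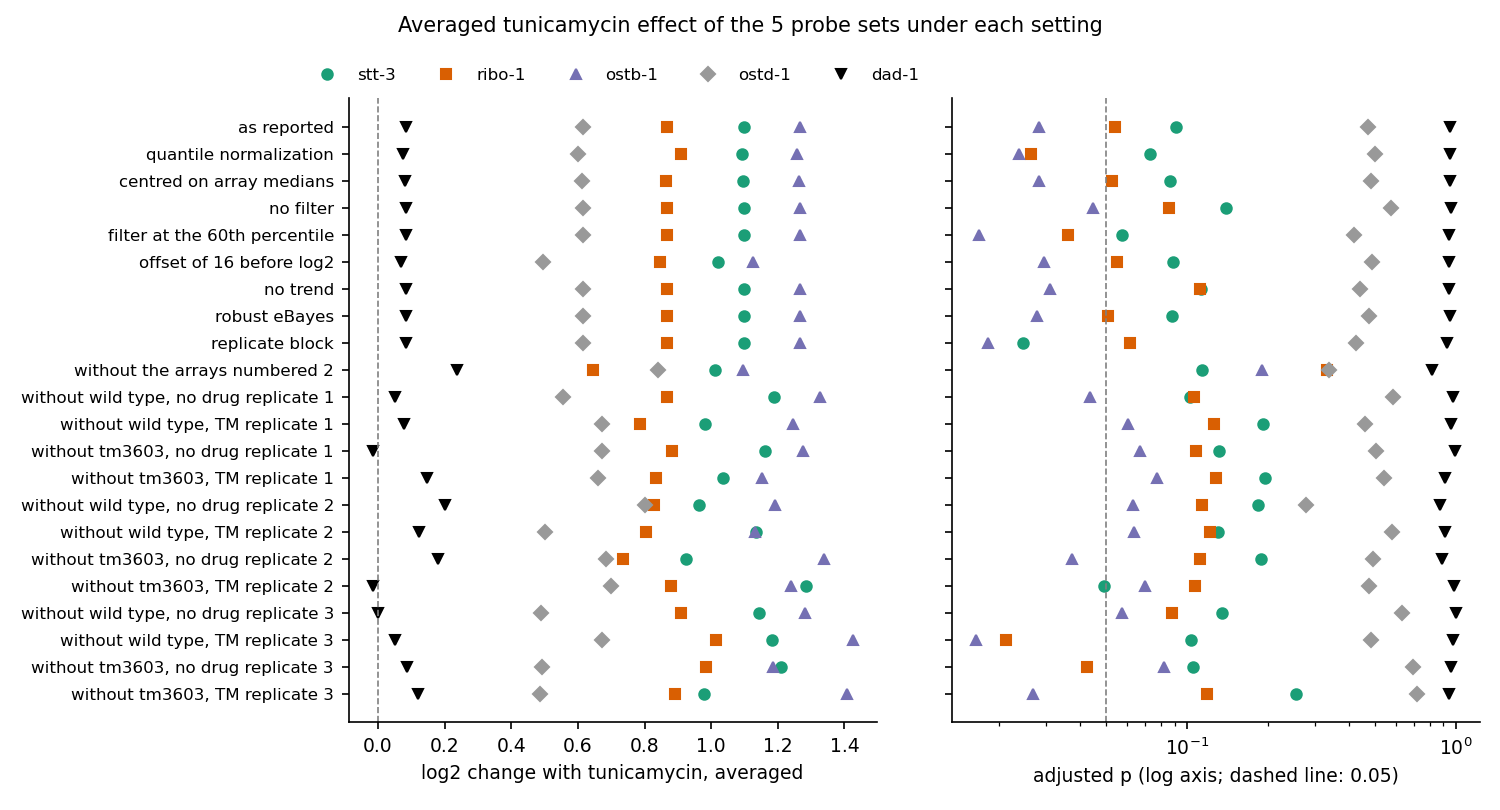
Averaged tunicamycin effect of the 5 probe sets (left, log2) and its adjusted p (right, log axis, dashed line at 0.05) under each processing setting (y axis). The changes of stt-3, ribo-1, ostb-1 and ostd-1 stay above 0 in every setting shown, while ostb-1 crosses the dashed line when single arrays or the arrays numbered 2 are left out.

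The median log2 change of the 5 subunits was 0.77 in wild type, 0.96 in tm3603 and 0.87 averaged. The corresponding medians over all 14709 probe sets were -0.03, -0.02 and -0.02. Changes were above 0 for 4 of 5 subunits in wild type, dad-1 being below, and for 5 of 5 in tm3603 and averaged, where 47.6%, 48.5% and 47.5% of all probe sets were above 0. Treated and untreated arrays did not overlap, with treated higher, for 3 of 5 in wild type (stt-3, ribo-1 and ostb-1) and 3 of 5 in tm3603 (ribo-1, ostb-1 and ostd-1), and 5.43% and 7.55% of all probe sets did so. These shares describe the 5 genes and are not a test of them as a set. Because whole larvae were measured, more RNA per cell and a larger share of cells that express a gene cannot be told apart. With tunicamycin, averaged over genotypes, the intestine marker asp-1 was at -1.10 (limma adjusted p = 0.0116), the only 1 of 8 to pass. The share of all probe sets that passed as lower was not counted, so this count is not read further. The intestine list had a median log2 change of -0.52 with 0 of 8 values above 0, and the hypodermis list -0.66 with 1 of 7 above 0. The pharynx list went the other way, at 0.21 with 5 of 6 above 0. The body wall muscle list was at -0.03 with 3 of 7 above 0, and the neuron list at -0.11 with 1 of 8. In wild type the median intestine signal per array was 7.22 to 7.64 without drug and 6.72 to 7.74 with tunicamycin. In tm3603 it was 7.15 to 7.44 and 6.36 to 6.84, without overlap. That of hypodermis was 6.70 to 7.43 and 6.18 to 6.71 in wild type, and 5.78 to 7.70 and 5.64 to 6.09 in tm3603. The part of these tissues in the subunits' values, and in their comparisons between genotypes, was not tested.

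The subunits were also compared with each other, as the difference of 2 log2 signals on the same array, with tunicamycin against no drug. All 10 pairs were tested with a two-sided exact permutation of treatment within genotype, chosen after the values had been seen, whose smallest possible p is 0.005. The largest difference was between ostb-1 and dad-1, where the change of ostb-1 exceeded that of dad-1 by 1.18 log2 units (exact permutation p = 0.01, adjusted p = 0.1 over the 10 pairs). Those of stt-3 and ribo-1 exceeded that of dad-1 by 1.01 and 0.78 (both exact permutation p = 0.07, adjusted p = 0.233). None of the 10 pairs passed after adjustment. No pair could have passed alone, because the smallest possible exact permutation p of 0.005 adjusts to 0.05, which is not below the threshold. Unequal change of the subunits was therefore neither shown nor excluded at this number of arrays, and equal change was not shown.

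Over the 12 arrays, stt-3 and ribo-1 had a Pearson correlation of 0.85, ribo-1 and ostb-1 of 0.73 and stt-3 and ostb-1 of 0.62. With group means removed these were 0.64, 0.30 and -0.07, the highest being that of stt-3 with ribo-1. The subunit dad-1 ran against stt-3 within groups, with a correlation of -0.78. On the arrays numbered 2 dad-1 was the highest of its group in 3 of 4 groups, where stt-3 was the lowest in 3 of 4. These values describe 12 arrays. Whether the arrays shared a preparation or were scaled to each other is not known from the sources used here. The part of the arrays numbered 2 in these correlations was not tested.

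Genotype was compared without drug and under tunicamycin to ask whether manf-1(tm3603) larvae differ in these genes. By limma 0 of 5 subunits passed in either treatment, against 0.0068% of all probe sets passing in either direction without drug and 0.0408% under tunicamycin. At an unadjusted p under 0.05 there were also 0 of 5 in either treatment, and among all 14709 probe sets 769 without drug and 810 under tunicamycin. Without drug, the log2 difference of tm3603 from wild type was 0.12 for stt-3, 0.20 for ribo-1 and 0.19 for ostd-1. For ostb-1 it was -0.50 (95% interval -1.32 to 0.32) and for dad-1 -0.52 (-1.26 to 0.22). Under tunicamycin all 5 were above 0, between 0.06 for stt-3 and 0.39 for ostd-1. Arrays of tm3603 and wild type were apart for 0 of 5 subunits in both treatments, against 10.4% and 10.3% of all probe sets. These comparisons use the same 12 arrays as those of tunicamycin, and with 3 arrays per group they do not exclude differences inside their intervals.

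The interaction, the tunicamycin effect in tm3603 minus that in wild type, also had 0 of 5 past the threshold and 0 of 5 at an unadjusted p under 0.05. Across all 14709 probe sets 0.0068% passed, and 679 had an unadjusted p under 0.05. Its largest values were 0.70 for ostb-1 (95% interval -0.47 to 1.86, limma adjusted p = 0.995) and 0.63 for dad-1 (-0.41 to 1.68, adjusted p = 0.995). It was 0.19 for ribo-1, 0.20 for ostd-1 and -0.06 for stt-3. Larger numerical changes of ostb-1 in tm3603 than in wild type are therefore not shown to differ between the genotypes.

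Other genes of the pathway were taken from lists written with earlier results of these data known, with 1 probe set per gene. The count of risen genes in a list is therefore not a test of that list. Of all probe sets, 1.17% passed as higher in the averaged effect. In order of the pathway, the lipid-linked sugar chain is assembled first, and here 1 of 11 measured genes rose with tunicamycin averaged over genotypes, with a list median of 0.02. That gene was algn-7, the homologue of the enzyme that tunicamycin inhibits, at 1.54 (SE 0.30, limma adjusted p = 0.015). The dolichol-phosphate-mannose synthase subunits dpm-3 and dpm-1 were at 0.50 and 0.46 and the mannosyltransferase gene algn-3 at -0.44, and none of these passed. The call of algn-7 was lost without the 4 arrays numbered 2 (adjusted p = 0.138).

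In a list of 2 candidate further subunits 0 of 2 passed. ZK686.3 was at 0.80 (SE 0.27, limma adjusted p = 0.216), in the range of the 5 subunits, and tmem-258, homologous to a small mammalian subunit, at 0.01 (SE 0.28).

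After transfer, the glycan is trimmed by glucosidases and read by lectin chaperones. In this list 4 of 7 genes rose, with a median of 1.15. They were the glucosidase II subunit homologue aagr-4 at 2.01 (SE 0.26), the lectin chaperone calreticulin gene crt-1 at 1.61 (SE 0.17), aagr-3 at 1.28 (SE 0.26) and uggt-1 at 1.15 (SE 0.26). The last encodes the glucosyltransferase that recognises misfolded glycoproteins. Without the 4 arrays numbered 2 there were 2 of 7, as aagr-3 (adjusted p = 0.0693) and uggt-1 (adjusted p = 0.143) did not pass. Other probe sets of aagr-3 and uggt-1 gave 1.03 for the first (adjusted p = 0.26) and 1.26 (adjusted p = 0.0168) and 0.73 (adjusted p = 0.268) for the second.

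The translocon and signal peptidase, which act beside oligosaccharyltransferase on the same entering proteins, had a list median of 0.64 with 5 of 12 genes higher. The signal peptidase genes sec-11, spcs-1, spcs-3 and spcs-2 rose by 2.36, 2.22, 1.53 and 1.53, and the translocation factor gene sec-62 by 1.49 (limma adjusted p between 0.000104 and 0.0218). The genes of the channel itself, sec-61.A, sec-61.B and sec-61.G, were at -0.04, 0.66 and 0.17 and did not pass. Other probe sets of sec-61.B gave 0.38 and 0.31 (limma adjusted p = 0.685 and 0.722). Without the 4 arrays numbered 2 there were 3 of 12, as sec-62 (adjusted p = 0.0887) and spcs-2 (adjusted p = 0.0992) did not pass.

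Later glycan processing in the Golgi had 0 of 10 measured genes past the threshold and a median of 0.12. Its lowest p-values were those of the mannosidase gene mans-2, at 0.89 (SE 0.32, limma adjusted p = 0.268), and the N-acetylglucosaminyltransferase genes gly-13 at 0.61 and gly-20 at 0.55. Next came mans-1 at 0.16. Another probe set of gly-13 gave 0.07 (limma adjusted p = 0.972). For scale, 7 of 7 ER chaperone and folding genes rose, with a median of 2.41, in a list also written with earlier results known. Among them were the BiP homologue hsp-4 at 3.39 (SE 0.21) and the disulfide isomerase pdi-2 at 2.41 (SE 0.19). By the 1 probe set per gene used here, the averaged changes of the 5 subunits ran from 0.08 to 1.27 and those of these 7 genes began at 1.93, that of hsp-3. Other probe sets of 2 of the 7 lay within the subunits' range, at 1.19 for pdi-2 (adjusted p = 0.00746) and 1.02 for enpl-1 (adjusted p = 0.0539), the latter not passing. The lists were not tested against each other. Over the 21 alternative settings the calls were lost in 12 for uggt-1, 6 for aagr-3, 6 for sec-62, 2 for spcs-2 and 1 for algn-7, and in 0 for the other pathway genes named here as risen.

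**Figure D4:**
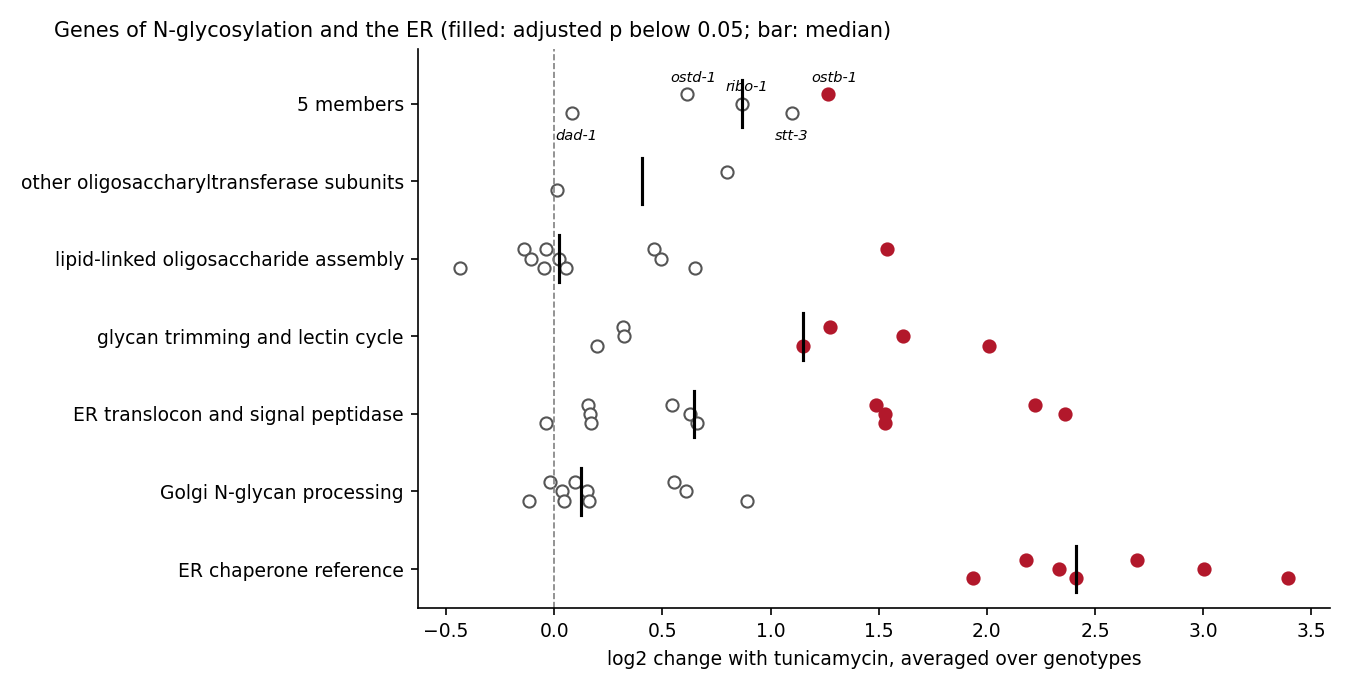
Log2 change with tunicamycin averaged over genotypes (x axis) for each measured gene of 7 lists (y axis), with filled points past the adjusted p of 0.05 and a bar at the list's median. Of the 5 subunits ostb-1 is filled, and the 5 lie at or below 1.27. By the probe set plotted the 7 chaperone genes lie at 1.93 or above, while other probe sets of pdi-2 and enpl-1, not plotted, were at 1.19 and 1.02.

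The probe sets of other single genes whose 12 signals ran most like the mean of the 5 subunits were sought among 13684. The 5 nearest were C14B9.2, a protein disulfide isomerase gene, with a Pearson correlation of 0.970, the BiP homologue gene hsp-3 at 0.968, the zinc transporter gene zipt-7.1 at 0.960, pdi-2 at 0.956 and uggt-1, by another of its probe sets than the one used above, at 0.955. Their averaged log2 changes with tunicamycin were 2.35, 1.93, 3.34, 2.41 and 1.26, each past the threshold. The mean of the 5 subunits spanned less than they did, from -0.50 in tm3603 without drug to 0.59 in tm3603 with tunicamycin around its mean. The correlations are over 12 arrays in 4 groups and largely follow the treatment. That these 5 probe sets passed the threshold for tunicamycin is therefore not a result separate from how they were picked.

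**Figure D5:**
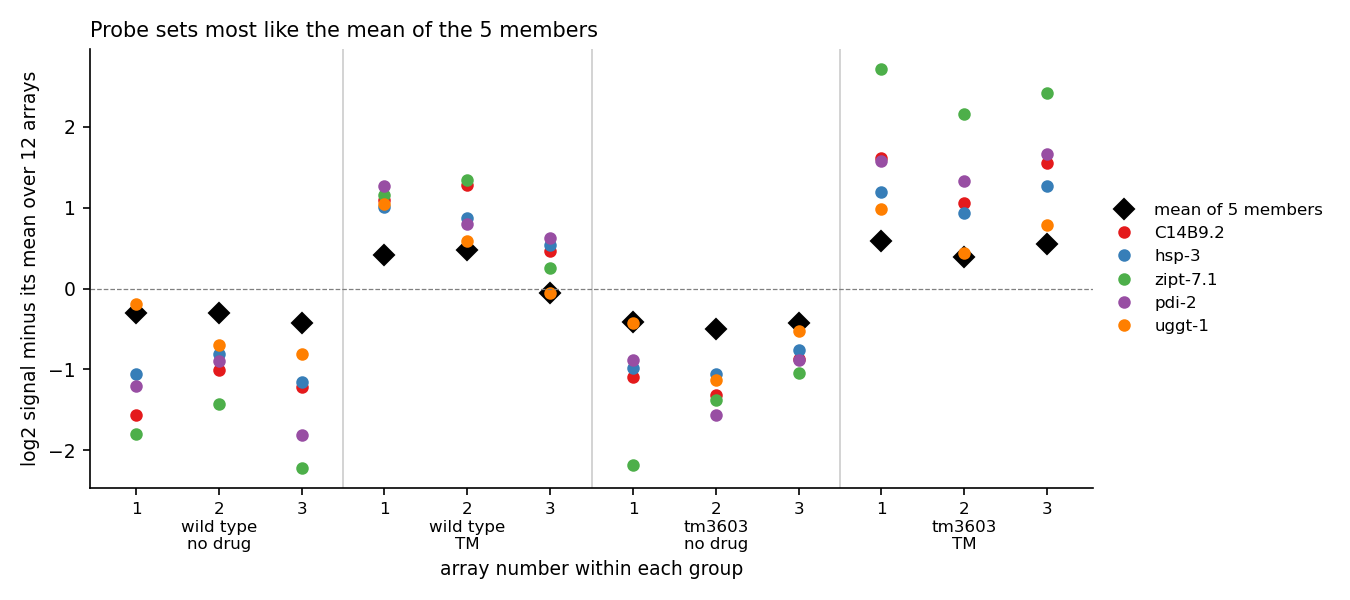
Log2 signal minus its mean over the 12 arrays (y axis) on each array (x axis, by group) for the mean of the 5 subunits (diamonds) and the 5 probe sets most like it. All 6 series lie below 0 on the no-drug arrays, and on the tunicamycin arrays only the subunit mean and uggt-1, on wild-type array 3, do.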

How the data were processed

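Biotin-labelled cRNA from 6 ug of total RNA of whole larvae was hybridised to 1-colour arrays, per the labels' protocols. The deposited table holds log2 signals, a scale read from its values. The authors' method is not given in the sources used here, and MAS5 is named, without version, in the submitters' processing notes. If the arrays were scaled to each other, a shift shared by most transcripts would be hidden, and compression of dim signals would shrink differences.

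The 77 control probe sets were left out. Probe sets above the 40th percentile of their array on at least 3 arrays were kept, with no further normalization. Genes were named from the platform annotation and matched by number to RefSeq (WBcel235) for 13649 of 13689 kept probe sets with 1 gene. No sequence or coordinate was used here. Group means of all 12 arrays were fitted with limma 3.58.1 in R 4.3.3 (eBayes with trend, 8 residual degrees of freedom) and tested two-sided in 6 contrasts, with Benjamini-Hochberg adjustment over 14709 probe sets. The script was tested on simulated data.

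Named were the 5 members, up to 4 pathway genes per list with the smallest p plus those past the threshold, and the 5 most similar probe sets. A pathway gene was read from its brightest kept probe set, and 49 of 56 genes had one. Members and lists were chosen with earlier results of these data known. Same-numbered arrays deviated together in 7 of 18 pairs (correlation above 0.1). The median correlation was 0.049 for same-numbered pairs and -0.048 for differently numbered ones, and pairs of arrays numbered 2 ran from 0.054 to 0.23. Deviations were taken from group means, which ties these medians to each other, so the negative median is not separate evidence of pairing. The reported fit did not treat numbers as pairing samples, and the counts with a replicate block, which differ, are given below. Alternatives were other scalings, filters, an offset, variance models, fewer groups, a replicate block and left-out arrays.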

Additional observations from a re-analysis of the deposited data

How the results depend on the processing

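The count of subunits past the threshold for the averaged tunicamycin effect was 1 as reported. It was 2 with quantile normalization, 2 with a filter at the 60th percentile and 0 without the arrays numbered 2. Leaving out single arrays gave 0 to 2. In tm3603 alone the count was 0 as reported, 1 with the stricter filter (ostb-1, adjusted p = 0.0453), and 0 to 1 without single arrays. With the replicate block the counts were 2 for the averaged effect (stt-3 and ostb-1) and 1 in tm3603. For 8 of 12 arrays the deviations correlated best with their own number, a hint from the data and not from the design. The counts for wild type, genotype and interaction were 0 in every alternative run.

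All 260 recomputed tunicamycin effects of stt-3, ribo-1, ostb-1 and ostd-1 were above 0, from 0.26 to 1.90. These refits reuse the same arrays and are not independent of each other or of the reported fit, and dad-1 is not in this count. No result past the threshold reversed, and the reversals listed are of values that had not passed. Without the arrays numbered 2 these were dad-1 in wild type at 0.080 and between genotypes under tunicamycin at -0.17, the stt-3 interaction at 0.16, and the change of ribo-1 minus that of ostd-1 at -0.19. Across single left-out arrays, dad-1 ranged from -0.40 to 0.0048 in wild type, from -0.017 to 0.20 averaged and from -0.090 to 0.24 between genotypes under tunicamycin. The stt-3 ranges were -0.15 to 0.47 between genotypes without drug, -0.18 to 0.43 under tunicamycin and -0.41 to 0.31 for the interaction. Those of ribo-1 were -0.039 to 0.46 without drug and -0.10 to 0.43 for the interaction. Those of ostd-1 were -0.059 to 0.57 without drug and -0.18 to 0.45 for the interaction. The ostb-1 range was -0.12 to 0.48 under tunicamycin, and that of stt-3 minus ostb-1 was -0.43 to 0.047. The causes were not tested. The number of arrays, 3 per group, limits the precision, and every subunit signal lay above the highest background control.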
